A study of Mus musculus with 30 samples.

Results

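The microtubule motors of the axon and the proteins that bind the tracks they run on were followed through lumbar dorsal root ganglia of mice given chemotherapy. The 53 genes were taken by name from a fixed list out of the 56686 genes measured, and all 53 were found once each. By role they are 15 heavy chains of plus-end kinesins, 1 depolymerising kinesin, 4 kinesin light chains and adaptor subunits, 9 dynein subunits, 6 dynactin subunits, 7 microtubule-associated proteins, 3 stathmins and 8 cargo adaptors. The rule itself used no measured value. Levels are in TPM, a unit scaled for transcript length and library total, so that genes can be compared with each other within a library.

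All mice were wild type males of the C57BL/6J strain. On day 2 the groups were CVAD, cyclophosphamide alone, dexamethasone alone and saline. On day 8 they were CVAD, cyclophosphamide alone, vincristine alone, doxorubicin alone, dexamethasone alone and saline. CVAD combines cyclophosphamide, an alkylating agent, vincristine, which binds tubulin and depolymerises microtubules, doxorubicin, a poison of topoisomerase II, and the glucocorticoid dexamethasone. Each of the 10 groups has 3 libraries, 30 in all, made from ganglia L3 to L5 of both sides after perfusion. The labels used here give no doses or ages and do not say whether a library is 1 animal or a pool, so p-values measure only the spread between these samples.

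A sensory neuron keeps its cell body in the ganglion and makes there nearly all of what its axon needs, and kinesins carry that cargo outward along microtubules toward their plus ends. Cytoplasmic dynein, switched on by dynactin and by cargo adaptors, returns endosomes and survival signals to the cell body. Microtubule-associated proteins such as tau stabilise the tracks, while stathmins bind free tubulin and favour their disassembly. Vincristine acts on the tracks themselves, and a length-dependent sensory neuropathy is its best known toxic effect on nerves.

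The columns of the 30 libraries summed to 999910 to 999941 TPM, and 25342 to 27972 genes were above 0 in each. Read depth is unknown, because only TPM values were used. Protein-coding genes held 60.5 to 73.8% of the TPM and genes of the misc_RNA type 13.4 to 28.3%. All 12 sensory neuron markers were present in every library, with a summed level of 2215 to 3153 TPM. Markers of satellite glia summed to 633 to 840 TPM, of myelinating Schwann cells to 1187 to 1722 TPM, of macrophages to 74.1 to 113 TPM, of fibroblasts to 550.3 to 872 TPM and of endothelium to 137 to 198 TPM. Markers listed for tissue outside the ganglion varied more, from 7.31 to 742 TPM for skeletal muscle and from 39.9 to 188 TPM for spinal cord. On average most of the spinal cord sum was the myelin gene Mag (mean 73.6 TPM, lowest 37.7 TPM), so the sum is not read as an amount of cord. The next highest of its markers, Gfap, averaged 11.8 TPM, and the astrocyte gene Aqp4 was listed at 0 in all 30 libraries. The part of such tissue in the differences below was not tested.

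The transport genes were abundant. Of the 53, 50 passed the filter on low values (3 or more libraries with 1 TPM or more), and 33 of these averaged over 100 TPM. The other 3, Kif3a (a kinesin-2 motor subunit) and the kinesin adaptors Mapk8ip1 and Mapk8ip3, were listed at 0 in all 30 libraries. Neurons are known to express these 3 genes, so a listing at 0 here may be a missing estimate and is not read as absence. In total the 53 genes held 0.599 to 0.770% of the TPM of a library. Each library's sum lay between 5989 and 7697 TPM, and both extremes came from cyclophosphamide on day 2.

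Among the plus-end kinesins, Kif1a led with a mean of 259 TPM over the 30 libraries, followed by Kif1b at 238 TPM and Kif5a at 199 TPM. Kif1a carries precursors of synaptic vesicles and dense-core vesicles, and Kif5a is the neuron-enriched heavy chain of conventional kinesin, in which mutations cause axonal neuropathy and spastic paraplegia in humans. At the low end stood Kif21b at 18.1 TPM and Kif17, a kinesin-2 motor best known from dendrites and cilia, at 5.34 TPM. Kif2a, which takes tubulin off microtubule ends instead of carrying cargo, averaged 72.9 TPM. No other role spanned as wide a ratio of levels as the kinesin heavy chains.

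The light chain Klc1, which links conventional kinesin to cargo, averaged 283 TPM, and the lowest gene of its group, Klc4, 39.1 TPM. The 9 dynein subunits lay close together, between 105 TPM for the intermediate chain Dync1i1 and 209.7 TPM for the heavy chain Dync1h1, the motor itself. Dynactin ran from 95.4 TPM for Dctn6 to 241 TPM for Dctn1, the p150 subunit that grips the microtubule. The most abundant single genes of the list, Map1b at 317 TPM and Map4 at 298 TPM, encode microtubule-associated proteins, and Mapt, which encodes tau, averaged 262 TPM. Stathmins ranged from 20.6 TPM for Stmn4 to 186 TPM for Stmn3. Trak1, which couples mitochondria to motors, was the highest cargo adaptor at 204 TPM, and Hook1, an adaptor that activates dynein, the lowest at 16.7 TPM.

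**Figure D1:**
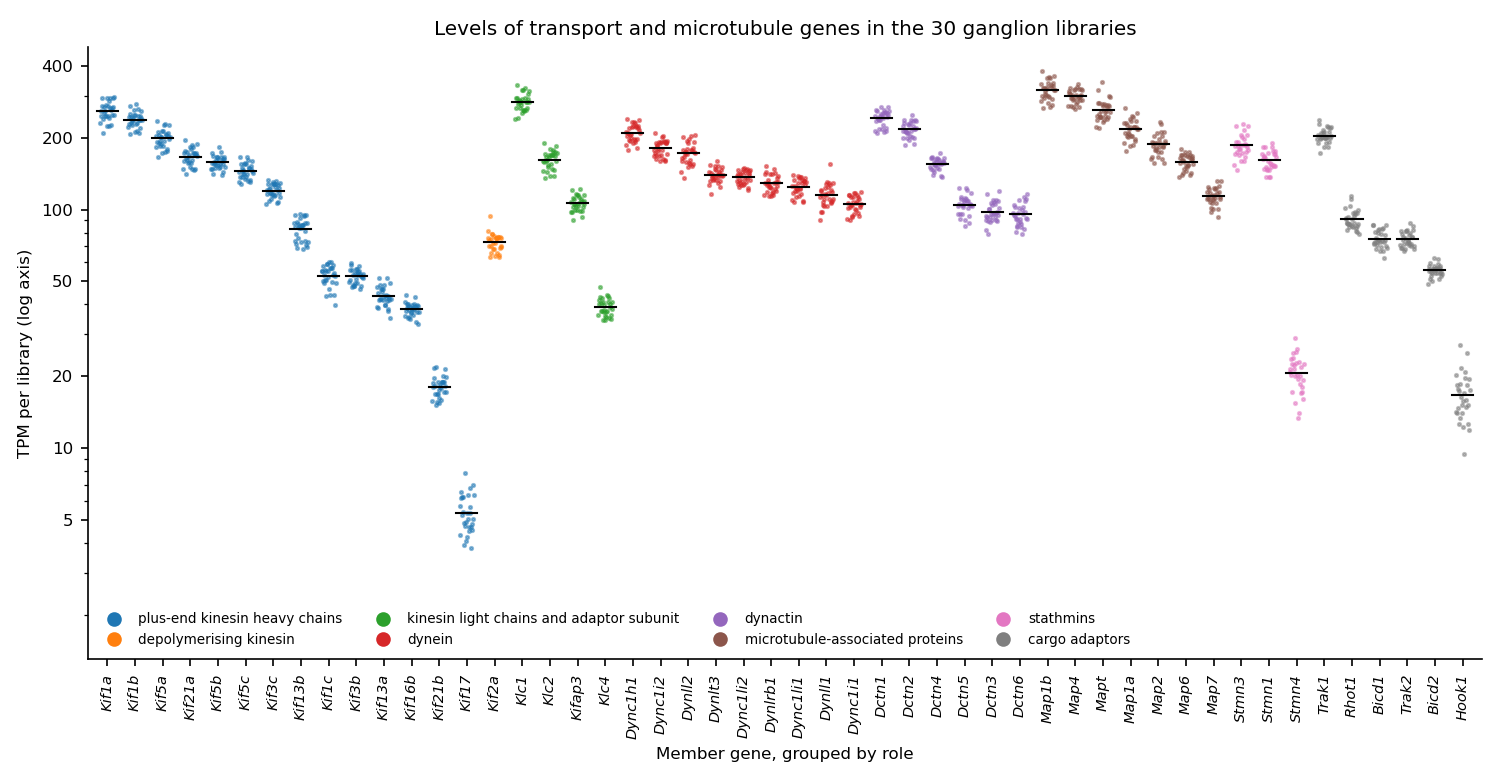
TPM of the 50 transport and microtubule genes above 0 (log axis) in each of the 30 libraries, grouped by role, with the mean of each gene as a bar. Map1b is highest at 317 TPM and Kif17 lowest at 5.34 TPM, and each gene's 30 points lie close together apart from Hook1, Kif17 and Stmn4.

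These levels were steady from library to library. The coefficient of variation over all 30 libraries had a median of 8.32% among the 50 genes, against 17.9% among all 25434 genes tested and 9.93% among the 12662 protein-coding genes of the same TPM range. It ran from 5.55% for the dynactin subunit Dctn4 to 23% for Hook1. Only Hook1, Kif17 (18.6%) and Stmn4 (17.5%) passed 15%, and these are among the least abundant of the list. The highest library of a gene stood 1.24-fold (Dync1li2, a dynein light intermediate chain) to 2.85-fold (Hook1) above its lowest. Within groups, the SD on the log2 scale had a median of 0.130 among the 50 genes, against 0.226 among all genes tested and 0.142 among the protein-coding genes of the same range.

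No transport gene passed the adjusted threshold in any of the 21 comparisons between groups. Differences are given as log2 of (TPM + 1), group minus group, with their SE from 1 model over all 30 libraries in limma, and p-values were adjusted by the Benjamini-Hochberg method over all 25434 genes tested in a comparison, with a threshold of 0.05. The comparison of CVAD with saline on day 8 called 0 of 50 transport genes, where the share of all genes called was 0%. At an unadjusted p under 0.05 it held 1 transport gene higher and 1 lower, against 5.98% of all genes. Of the 50, 18 were higher and 32 lower in CVAD, with a median difference of −0.04 (0.02 over all genes), and single differences ran from −0.39 to 0.25.

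The intervals limit how large a change could have gone undetected. For CVAD on day 8, the 95% interval lay within 1.5-fold of saline in either direction for 49 of the 50 genes. Kif5a stood at 201, 214 and 172 TPM in CVAD, against 197, 227 and 202 TPM in saline. The groups overlapped, and the fold was 0.936 with a 95% interval of 0.797 to 1.10 (adjusted p = 0.979). Map1b stood at 328, 357 and 279 TPM in CVAD, against 318, 364 and 318 TPM in saline, a difference of −0.06 with an interval of −0.31 to 0.19. The third CVAD library was the lowest of that group for both genes, and its neuron markers were also the lowest of the group. They stood at 2364 TPM, against 2759 and 2958 TPM in the other CVAD libraries. Its markers of Schwann cells (1187 TPM), satellite glia (660 TPM) and fibroblasts (573 TPM) were the lowest of the group too. So was its share of TPM in protein-coding genes, at 63.4% against 70.6 and 71.2%.

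Among the motors and adaptors, Rhot1 had the smallest p in CVAD on day 8. Rhot1 encodes Miro1, the calcium-binding protein of the outer mitochondrial membrane to which Trak adaptors and motors attach. It was at 111, 114 and 90.9 TPM in CVAD, against 99.4, 86.7 and 78.8 TPM in saline. The third CVAD library fell inside the saline range, and the difference of 0.25 ± 0.10 had an adjusted p of 0.668. Set against the single drugs of day 8, whose libraries ranged from 80.3 TPM in dexamethasone to 97.7 TPM in doxorubicin, the mean in CVAD was again the highest, at 105 ± 12.4 TPM (SD, n = 3). The difference was 0.26 from dexamethasone (adjusted p = 0.833), 0.26 from doxorubicin, 0.18 from vincristine (both adjusted p = 1.0) and 0.23 from cyclophosphamide (adjusted p = 0.914). These comparisons share the same 3 CVAD libraries.

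Kif21b, a kinesin that pauses microtubule growth in neurons, pointed the other way. It was at 16.8, 15.5 and 16.2 TPM in CVAD, against 21.4, 17.2 and 19.8 TPM in saline on day 8. All 3 CVAD libraries were lower than every saline library, with a difference of −0.25 ± 0.12 and an adjusted p of 0.808. Kif17 was at 4.91, 4.08 and 4.23 TPM in CVAD, against 5.04, 7.01 and 6.33 TPM in saline, again without overlap (−0.39 ± 0.19, adjusted p = 0.831). Groups that did not overlap occurred for 4 of the 50 genes, 1 higher (Bicd2) and 3 lower (Kif17, Kif21b and Map7), and for 9.99% of all genes, so the count is near that of all genes. Kif13b, a kinesin of the same family as Kif1a, averaged 90.4 ± 6.23 TPM in CVAD and 76.8 ± 9.93 TPM in saline with overlapping libraries (adjusted p = 0.862).

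**Figure D2:**
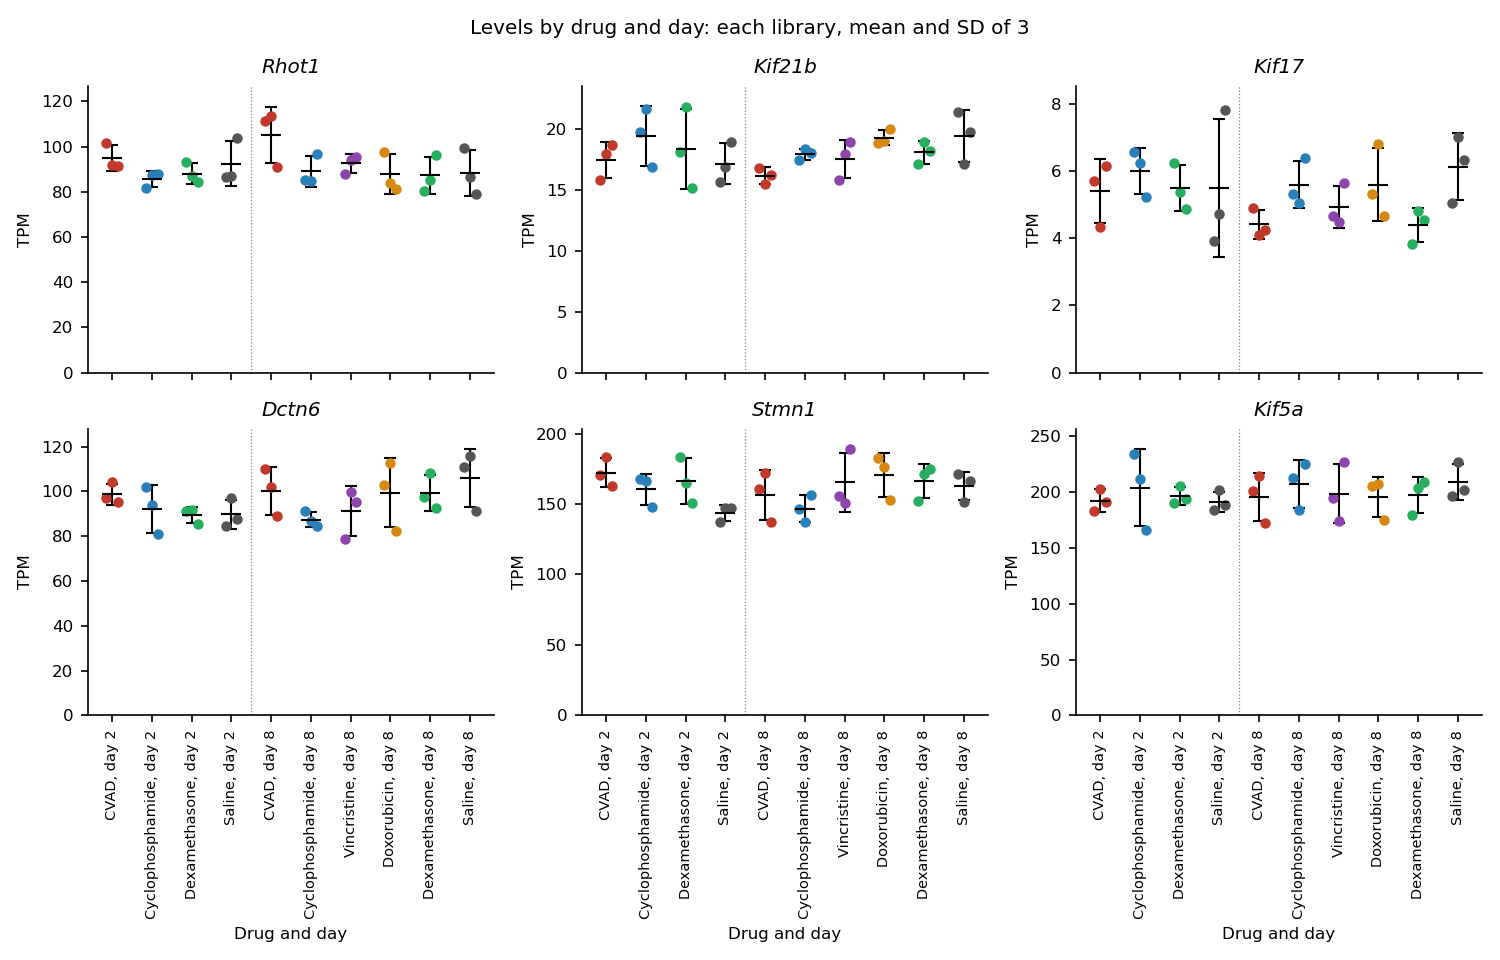
TPM of Rhot1, Kif21b, Kif17, Dctn6, Stmn1 and Kif5a in each library (points), with mean and SD of the 3 libraries of each group, day 2 left of the dotted line and day 8 right of it. No drug group passes the adjusted threshold against saline in any panel, and the lowest mean of Stmn1 is that of saline on day 2.

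Vincristine alone, the drug of the combination that acts on microtubules, was compared with saline on day 8. It called 0 transport genes, as did the comparison over all genes (0%), and 0 of the 50 had an unadjusted p under 0.05, against 3.44% of all genes. No transport gene had groups without overlap, where 6.18% of all genes did. The counts were 18 higher and 32 lower with a median of −0.03, against 0.02 over all genes. The interval stayed within 1.5-fold for 48 genes.

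Kif5a was at 195, 175 and 227 TPM in vincristine, against 197, 227 and 202 TPM in saline, and the libraries of both groups interleaved. Kif1a was at 243, 225 and 293 TPM in vincristine, against 269.5, 297 and 249.8 TPM in saline. Map1b was at 297, 269 and 355 TPM in vincristine, against 318, 364 and 318 TPM in saline. In each of the 3 genes the third vincristine library was the highest of its group. It also held the most neuron markers of that group (2933 TPM against 2653 and 2404 TPM). Its markers of Schwann cells (1668 TPM), satellite glia (840 TPM) and fibroblasts (846 TPM) were the highest of the group too. Its share of TPM in protein-coding genes, 73.8%, was the highest of all libraries. The smallest p belonged to Dctn6, a small subunit of the pointed end of dynactin, at 91.2 ± 11 TPM in vincristine and 105.9 ± 12.9 TPM in saline (−0.21 ± 0.11, adjusted p = 1.0). Kif1c followed with 53.5 TPM in vincristine and 47.2 TPM in saline, then Kif17 with 4.93 and 6.13 TPM and the dynein adaptor Bicd2 with 57.5 and 53.8 TPM, vincristine first in each pair, all at adjusted p = 1.0.

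**Figure D3:**
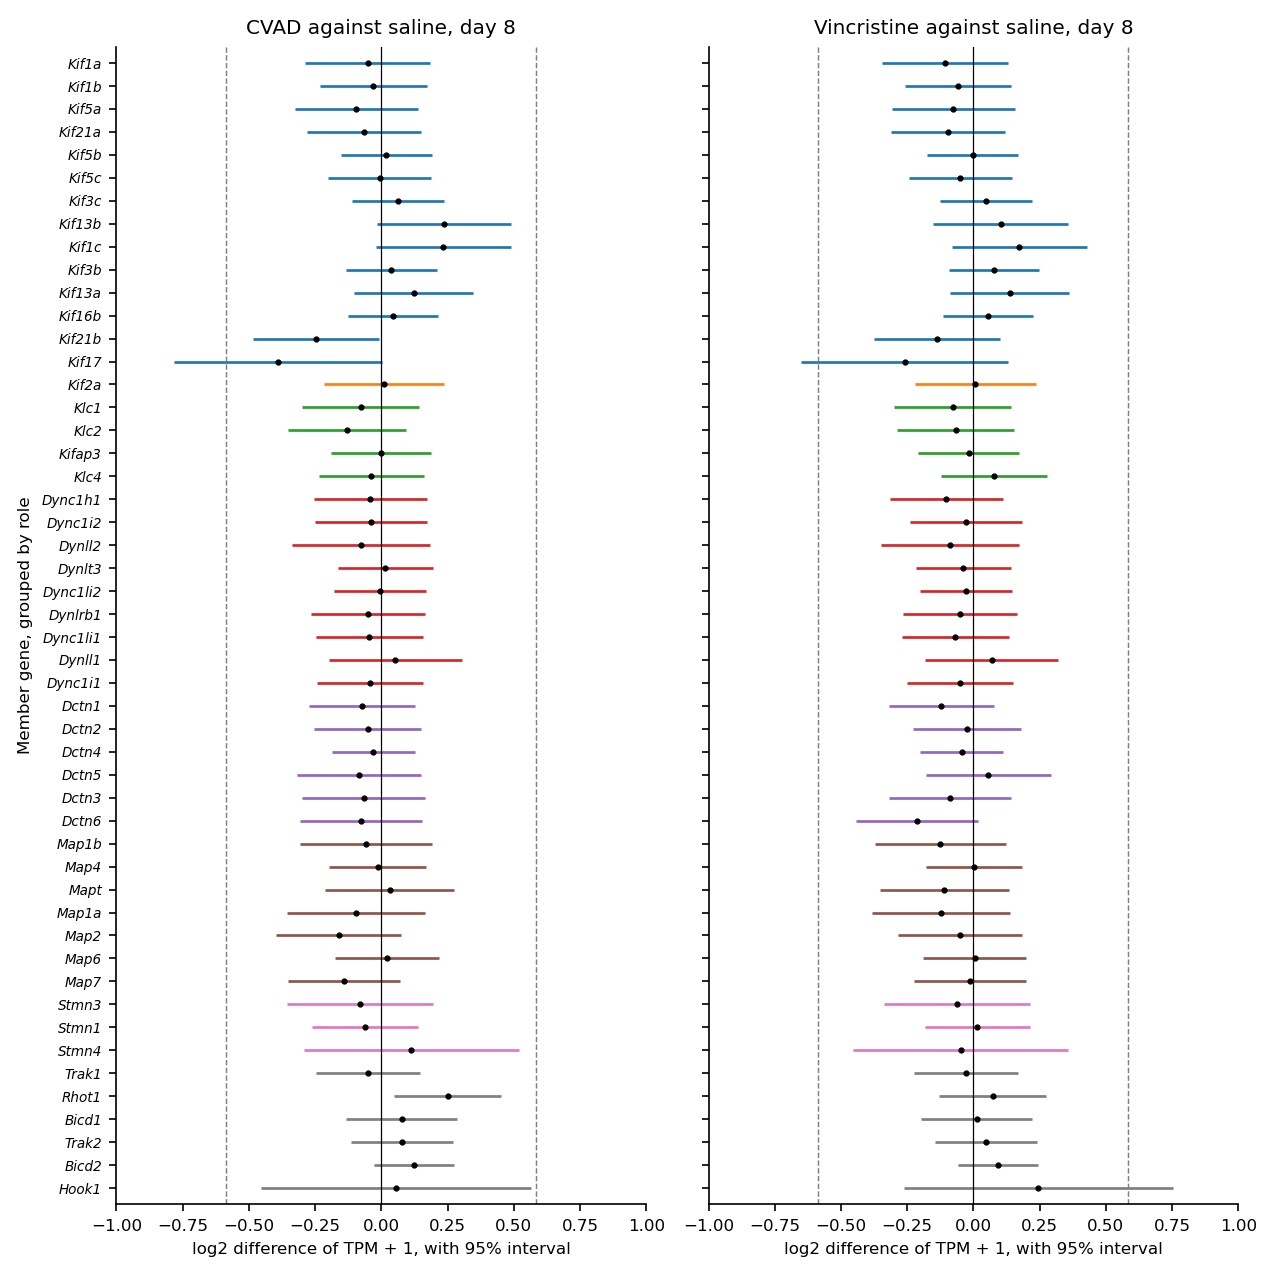
Log2 difference of (TPM + 1) from saline on day 8 for the 50 genes, CVAD on the left and vincristine on the right, with 95% intervals coloured by role as in the plot of levels and dashed lines at 1.5-fold. All intervals but 1 in CVAD and 2 in vincristine lie between the dashed lines, and Hook1 has the widest.

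Cyclophosphamide alone on day 8 called 0 transport genes, against 0.00786% of all genes (2 genes). It held 1 transport gene with an unadjusted p under 0.05 against 5.76% of all genes, and 1 without overlap against 9.48%. Both counts refer to Dctn6, at 91.1, 86.7 and 84.6 TPM in cyclophosphamide, against 111, 116 and 91.3 TPM in saline (−0.27 ± 0.11, adjusted p = 0.80). Kif1c was at 54.6 ± 7.26 TPM in cyclophosphamide and 47.2 ± 6.5 TPM in saline. Stmn1 was at 147 ± 9.43 TPM in cyclophosphamide and 163 ± 10 TPM in saline, and Hook1 at 12.5 ± 3.16 and 16.3 ± 3.87 TPM in the same order. Their groups overlapped. Of the 50 genes 21 were higher and 29 lower (median −0.01, −0.04 over all genes), and 49 intervals stayed within 1.5-fold.

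Doxorubicin alone on day 8 called 0 transport genes against 0% of all genes, with 0 of 50 at an unadjusted p under 0.05 against 3.35%, and 0 of 50 without overlap against 5.99%. Of the 50, 10 were higher and 40 lower, with a median of −0.05 (−0.02 over all genes). The smallest p belonged to Kif1c, at 55.1 ± 4.58 TPM in doxorubicin and 47.2 ± 6.5 TPM in saline. Dynll1, a light chain of dynein, was at 129.6 ± 24.6 TPM in doxorubicin and 116 ± 11.3 TPM in saline. Dctn1 was at 241 and 258 TPM, and Kif1a at 251 and 272 TPM, doxorubicin first. All 4 had an adjusted p of 1.0, and all 50 intervals stayed within 1.5-fold.

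Dexamethasone alone on day 8 also called 0 transport genes against 0%. It held 1 gene with an unadjusted p under 0.05 against 3.26%, and 2 without overlap against 6.51%. Kif17 was at 3.83, 4.81 and 4.53 TPM in dexamethasone, against 5.04, 7.01 and 6.33 TPM in saline, a difference of −0.40 ± 0.19. Map2, the microtubule-associated protein of cell bodies and dendrites, was at 182, 185 and 156 TPM in dexamethasone, against 211, 194 and 189 TPM in saline (−0.19 ± 0.11). Both lay wholly under saline, and both had an adjusted p of 1.0. Dctn4 averaged 151 TPM in dexamethasone and 160.2 TPM in saline, and Dctn5 99.2 and 109 TPM, with overlap. Over the list 10 genes were higher and 40 lower, with a median of −0.04 against −0.02 over all genes.

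Read by role, no group of genes had a member that passed the test on day 8. In CVAD, 0 of the 4 kinesin light chains and adaptor subunits were higher than saline, 2 of 9 dynein subunits, 0 of 6 dynactin subunits and 2 of 7 microtubule-associated proteins. Of the cargo adaptors 5 of 6 were higher, and kinesin heavy chains split 7 and 7. In vincristine the corresponding counts were 1 of 4, 1 of 9, 1 of 6 and 2 of 7, with 5 of 6 cargo adaptors higher. Of all genes tested, 54.2% were higher in CVAD and 54.7% in vincristine. Among protein-coding genes of the same TPM range the shares were 58.3 and 58.1%. All role medians in both comparisons lay between −0.07 and 0.08, and the comparisons share their saline libraries. The direction also moved with scaling, most in cyclophosphamide, where 41 of 50 genes were higher when libraries were scaled by their median ratio and 38 when rescaled over protein-coding genes, against 21 as deposited.

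The direction of the list on day 8 also rested on single libraries. Without the third CVAD library 43 of the 50 genes were higher than saline, without the second cyclophosphamide library 35, without the second vincristine library 33, without the third doxorubicin library 30 and without the first dexamethasone library 31. Each of these libraries had the lowest summed level of the list in its group, at 6262, 6559, 6411, 6172 and 6391 TPM in the same order. Without any 1 other library the counts ran down to 13 in CVAD, 10 in cyclophosphamide, 11 in vincristine, 9 in doxorubicin and 8 in dexamethasone.

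On day 2, CVAD again called 0 transport genes, where 0.0432% of all genes (11 genes) were called. It held 1 gene with an unadjusted p under 0.05, against 8.19% of all genes, and 2 without overlap, against 13.5%. That gene was Stmn1, which encodes stathmin, the protein that sequesters tubulin dimers. It was at 170.3, 183 and 163 TPM in CVAD, against 137, 147 and 147 TPM in saline. The CVAD libraries were all higher, by 0.26 ± 0.10, with an adjusted p of 0.432. Kif3b, the kinesin-2 motor subunit, was at 49.6, 55.6 and 50.6 TPM in CVAD, against 48.0, 48.0 and 49.4 TPM in saline, also without overlap (0.10 ± 0.08, adjusted p = 0.842). A term was also fitted for the libraries numbered S1 to S8. These are all day 2 libraries of CVAD and cyclophosphamide and 2 of the 3 of dexamethasone. The term is therefore set only by dexamethasone, S7 and S8 against the single library S9, and cannot test the numbering. With it the Kif3b difference turned to −0.075.

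The other day 2 drugs stood in the same place relative to saline for Stmn1. It was at 168, 166 and 148 TPM in cyclophosphamide and 183, 165 and 150.5 TPM in dexamethasone, against the same 3 saline libraries. All 6 of these libraries lay above saline, which on day 2 had the lowest mean of all 10 groups (144 ± 5.86 TPM). With the term for libraries S1 to S8, the Stmn1 difference was 0.05 in CVAD and 0.07 in dexamethasone. The dexamethasone value then sets library S9 alone against saline, and numbering and drug cannot be told apart in CVAD and cyclophosphamide. On day 8, saline was at 171, 152 and 166 TPM and CVAD at 160.4, 172 and 137 TPM, interleaved. The response to CVAD on day 8 minus that on day 2 was −0.32 ± 0.14 for Stmn1 (adjusted p = 0.470), and that to cyclophosphamide −0.31 ± 0.14 (adjusted p = 0.479). The next smallest p was that of Kif21b in CVAD, at −0.27 ± 0.16 (adjusted p = 0.699), which turned to 0.0948 with the same term, and that of Dctn6 in cyclophosphamide, at −0.30 ± 0.16 (adjusted p = 0.551). In dexamethasone they were those of Kif17 (−0.44 ± 0.27) and Dctn5 (−0.25 ± 0.16), both at an adjusted p of 0.932.

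Cyclophosphamide on day 2 called 0 transport genes against 0.0118% of all genes. Its 2 genes with an unadjusted p under 0.05 (7.51% of all genes) were Kif3b and Kif16b, a kinesin of early endosomes. Kif3b averaged 55.2 ± 6.67 TPM in cyclophosphamide and 48.5 ± 0.833 TPM in saline with overlap (adjusted p = 0.655). Kif16b was at 43.7, 40.0 and 38.5 TPM in cyclophosphamide, against 35.5, 37.8 and 34.6 TPM in saline, all higher (0.17 ± 0.08, adjusted p = 0.659). With the term for libraries S1 to S8, which only dexamethasone libraries set, the difference was −6.06e-05. Groups without overlap numbered 2, against 11.5% of all genes. Klc4 (42.6 TPM in cyclophosphamide, 37.5 TPM in saline) and the dynein light chain Dynlrb1 (138 and 122 TPM) overlapped.

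Dexamethasone on day 2 called 0 transport genes against 0.00393%, with 1 gene at an unadjusted p under 0.05 against 5.37%. That gene was again Stmn1, at 0.21 ± 0.10 above saline with an adjusted p of 0.920. Without overlap stood 7 genes, all higher, against 8.91% of all genes in either direction. They were Kif3c, Klc2, Dctn2, Dctn5, Map4, Map6 and Stmn1. Map6, which makes microtubules stable in the cold, was at 162, 169.8 and 161 TPM in dexamethasone, against 143, 148 and 158 TPM in saline (0.13 ± 0.10, adjusted p = 0.979). Kif3b averaged 52.5 TPM in dexamethasone and 48.5 TPM in saline with overlap. Its difference turned to −0.00398 with the term for libraries S1 to S8, which leaves library S9 alone against saline. Dync1i1 averaged 107 TPM in dexamethasone and 97.4 TPM in saline, also with overlap.

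The direction of the list on day 2 depended on scaling. As deposited, 25 of 50 genes were higher in CVAD (median −0.002, 0.07 over all genes), 40 in cyclophosphamide (0.05, 0.06 over all genes) and 40 in dexamethasone (0.03, 0.06 over all genes). With libraries scaled by their median ratio, the counts were 8, 19 and 13. The third cyclophosphamide library had the lowest summed level of the list (5989 TPM). Without it 12 of the 50 genes had an unadjusted p under 0.05 in limma (smallest adjusted p 0.251), and 0 of all genes were called. The share of all genes at an unadjusted p under 0.05 was not computed there, so the 12 are not read as a result. The median of the list was then 0.17, against 0.09 over all genes. Without the first cyclophosphamide library, which had the highest sum (7697 TPM), 22 genes were higher. Without the first CVAD library 38 genes were higher in CVAD, and without the second 16. The 95% interval lay within 1.5-fold for 49, 48 and 49 genes in the same order. Saline itself, day 8 against day 2, had 40 of 50 genes higher with a median of 0.09 (0.07 over all genes), and 10 genes without overlap, all higher on day 8, against 13.3% of all genes. It called 0 of 50 against 0.00393%. Dctn6 averaged 105.9 ± 12.9 TPM on day 8 and 89.7 ± 6.52 TPM on day 2 (adjusted p = 0.716), and the light chain Klc2 172 ± 12.6 and 149 ± 4.93 TPM (adjusted p = 0.729).

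The drugs were also compared with each other, again with 0 transport genes called throughout. In each comparison, 0 to 2 of the 50 had an unadjusted p under 0.05 in limma. Of the 25434 genes tested, 751 to 1358 did so between drugs, and 1251 to 2430 in the day 8 minus day 2 responses. The shares of all genes called were 0% for CVAD against cyclophosphamide, vincristine, doxorubicin and dexamethasone on day 8, and 0.00393% and 0% for CVAD against cyclophosphamide and dexamethasone on day 2. They were 0% for vincristine against cyclophosphamide and doxorubicin and 0.0118% for vincristine against dexamethasone on day 8. For the day 8 response minus the day 2 response they were 0.0826% in CVAD and 0% in cyclophosphamide and dexamethasone. After Rhot1, the next smallest p in CVAD against vincristine was that of Map7, which recruits kinesin to microtubules, at 107 TPM in CVAD and 117 TPM in vincristine. Against doxorubicin it was that of Kif21b, at 16.2 ± 0.665 TPM in CVAD and 19.3 ± 0.614 TPM in doxorubicin without overlap. Against dexamethasone it was Kif21b again (18.1 TPM in dexamethasone), and against cyclophosphamide Map2, at 177 TPM in CVAD and 204 TPM in cyclophosphamide.

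Among single drugs, the largest difference of the list was that of Hook1 between vincristine and cyclophosphamide on day 8. It was at 17.1, 19.6 and 20.9 TPM in vincristine, against 12.3, 15.8 and 9.44 TPM in cyclophosphamide. The groups did not overlap, and the difference of 0.60 ± 0.25 had an adjusted p of 0.954. Kif13a was at 46.1 TPM in vincristine and 39.0 TPM in doxorubicin, and Dctn5 at 113 TPM in vincristine, 99.2 TPM in dexamethasone and 101 TPM in doxorubicin, each at an adjusted p of 1.0. On day 2, Kif13b averaged 89.1 TPM in CVAD and 75.0 TPM in cyclophosphamide, and tau (Mapt) 235 and 271 TPM. Against dexamethasone on day 2 the smallest p values were those of the adaptor Bicd1 (81.4 TPM in CVAD, 72.2 TPM in dexamethasone) and of Dctn6 (98.8 and 89.4 TPM), all at an adjusted p of 1.0.

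A share of a family within 1 library does not depend on how the library was scaled, and the shares were narrow. Kif5a held 39.6% of the summed Kif5 level on average, with a range of 37.5 to 41.0% over the 30 libraries, Kif5b 31.5% and Kif5c 29%. Of the Kif1 genes, Kif1a held 47.0%, Kif1b 43.4% and Kif1c 9.66%. Klc1 held 58.4% of the light chains, Dync1i2 63.2% of the dynein intermediate chains, Trak1 73.0% of the Trak genes, Kif21a 90.2% of the Kif21 genes and Map1b 59.4% of the Map1 pair. The widest range was that of the dynein light chain Dynll1, with 32.6 to 46.6% of its pair.

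Of 184 exact 2-sided permutation tests of a share between a drug and saline, 16 had groups without overlap and reached p = 0.1, the smallest that 3 against 3 can give. After adjustment over 184 tests the smallest p was 0.968, and with 3 libraries a group no share could have passed 0.05, so the shares are given as a description. The largest difference was in the stathmins on day 2, where Stmn1 held 49.2, 47.0 and 45.5% in CVAD, against 41.7, 41.4 and 42.5% in saline, with Stmn3 lower by 4.67 percentage points. Map4 held 42.2% of the Mapt, Map2 and Map4 sum in CVAD and 39.2% in saline on day 2. Klc1 held less of the light chains in all 3 drug groups of day 2, by 1.55 to 1.96 percentage points, against the same 3 saline libraries. On day 8 the largest difference in vincristine was 2.64 percentage points, with 0 shares free of overlap.

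The level of the list varied with the neuron markers of each library. Across the 30 libraries, the summed TPM of the transport genes followed the summed TPM of the 12 sensory neuron markers, with Pearson r = 0.95 and Spearman rho = 0.944. Without the 2 libraries farthest from the median r was 0.95, within day 2 it was 0.967 (12 libraries), within day 8 0.935 (18 libraries), and 0.955 after the group means were removed. The ratio of transport genes to neuron markers stayed between 2.36 and 2.73, with a coefficient of variation of 3.19%, against 6.64% for the transport genes and 8.84% for the markers alone. In bulk tissue, fewer neurons and less RNA per neuron cannot be told apart. The points share their library and its scaling, and the summed TPM of the list also followed the share of TPM in protein-coding genes (r = 0.817, rho = 0.808). Rescaled over protein-coding genes, a setting added after the relation was seen, r with the neuron markers was 0.979.

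Gene by gene, r with the neuron markers exceeded 0.8 for 25 of the 50 transport genes, against 6.32% of the 12585 protein-coding genes in the same TPM range (795 genes). Median r was 0.805 in the list and 0.169 in that range. By permutation, with p adjusted over those 12585 genes, 34 of the 50 had a positive relation and 0 a negative one, against 26.5% and 1.47% of genes. After rescaling over protein-coding genes r exceeded 0.8 for 20 of the 50, against 2.86% of genes. Stmn3, a stathmin of neurons, followed the markers most closely (r = 0.978, rho = 0.969, permutation p = 1e-05, the smallest that 100000 permutations give, adjusted p = 0.000102). Leaving out the 2 farthest libraries left it at 0.971. Kif5c (0.972), Kif21a (0.968), Map1a (0.968), Kif5a (0.967) and Dynll2 (0.965) came next, with Kif5b, the conventional kinesin found in most cell types, at 0.869.

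Other transport genes did not follow the neurons. Hook1 had r = −0.36 (rho = −0.32, permutation p = 0.0501, adjusted p = 0.135), Kif1c −0.27, Kif13b −0.16, Stmn4 −0.14 and Kif13a −0.14. Rhot1, the gene of smallest p in CVAD on day 8, had r = 0.107 (adjusted p = 0.733), Bicd1 0.087 and Trak2 0.244. Rescaled over protein-coding genes, r with the neuron markers was −0.325 for Rhot1, where its sign turned, −0.538 for Kif13b and −0.333 for Hook1. The median r of the 12585 protein-coding genes in the same TPM range turned as well, from 0.169 to −0.173. Against the summed markers of myelinating Schwann cells, Kif13b had r = 0.653 (rho = 0.688, permutation p = 9e-05, adjusted p = 0.00217) and Trak2 0.642. Bicd1 had 0.587 (permutation, adjusted p = 0.00845) and Rhot1 0.517 (adjusted p = 0.0227). For Rhot1 this r was −0.042 within day 2 and 0.659 within day 8. Map4, which is not restricted to neurons, followed both, with 0.816 for neurons and 0.80 for Schwann cells. Klc1 (0.693) and Kif1a (0.691) had a higher r with the Schwann cell markers than Kif13b. No transport gene exceeded 0.8 with these markers, where 0.493% of genes did, and the list's sum had r = 0.657. By permutation, adjusted as for the neuron markers, 30 of the 50 had a positive relation and 0 a negative one, against 20.4% and 0.0556% of genes. After rescaling over protein-coding genes that sum had r = 0.308 with the Schwann cell markers, Kif13b 0.539 and Rhot1 0.261.

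**Figure D4:**
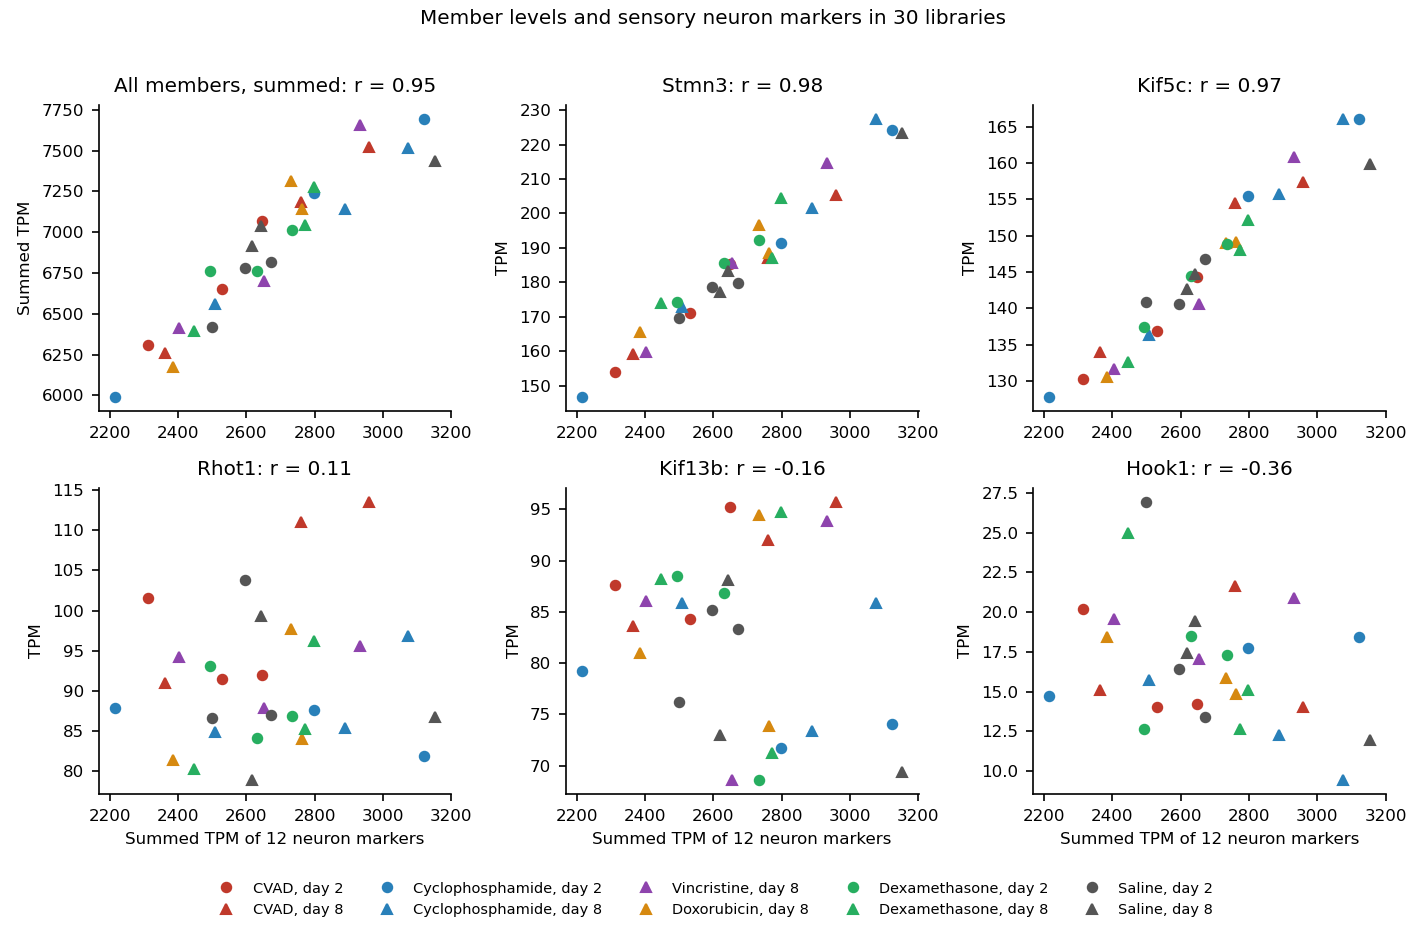
Summed TPM of the transport genes, and TPM of Stmn3, Kif5c, Rhot1, Kif13b and Hook1, against the summed TPM of the 12 sensory neuron markers in each of the 30 libraries (circles for day 2, triangles for day 8, colours for drugs). The first 3 panels rise along a line with r of 0.95, 0.978 and 0.972, and the drugs lie mixed along it, while the lower panels show no such line.

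With the summed neuron markers as a covariate, a setting added after this relation was seen, 0 of the 50 genes were called in all 21 comparisons, and the smallest adjusted p was 0.188. The median difference from saline on day 8 was then 0.01 in CVAD, −0.02 in cyclophosphamide, 0.02 in vincristine, 0.01 in doxorubicin and 0.01 in dexamethasone. On day 2 it was 0.04 in CVAD, 0.01 in cyclophosphamide and 0.02 in dexamethasone, with 36, 31 and 36 of the 50 genes higher. At an unadjusted p under 0.05 in limma stood 4 genes in CVAD, 3 in cyclophosphamide and 4 in dexamethasone on day 2. Without the covariate, 8.19, 7.51 and 5.37% of all genes did in the same order. The share of all genes with it was not computed, so these counts are not read as a result.

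Promoter sequences are shown for Stmn3 and Kif5c, the genes closest to the neuron markers, and for Hook1, the one of lowest r with TPM as deposited. They come from RefSeq on build GRCm38.p6, where 39 of the 53 genes had an entry, and run from 250 bases before to 50 bases after the start, 5′ to 3′ on the gene's strand. The windows are chr2:181314451-181314750 (minus strand) for Stmn3, chr2:49619036-49619335 (plus strand) for Kif5c and chr4:95967129-95967428 (plus strand) for Hook1. Capitals mark matches on either strand to the GC box GGGCGG and to the cyclic AMP response element TGACGTCA, which do not overlap each other.
Stmn3: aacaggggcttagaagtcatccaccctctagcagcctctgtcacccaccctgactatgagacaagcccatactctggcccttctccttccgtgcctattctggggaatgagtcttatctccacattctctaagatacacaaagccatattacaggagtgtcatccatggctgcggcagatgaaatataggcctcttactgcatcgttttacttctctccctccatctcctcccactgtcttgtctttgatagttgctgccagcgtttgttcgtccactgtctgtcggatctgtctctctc
Kif5c: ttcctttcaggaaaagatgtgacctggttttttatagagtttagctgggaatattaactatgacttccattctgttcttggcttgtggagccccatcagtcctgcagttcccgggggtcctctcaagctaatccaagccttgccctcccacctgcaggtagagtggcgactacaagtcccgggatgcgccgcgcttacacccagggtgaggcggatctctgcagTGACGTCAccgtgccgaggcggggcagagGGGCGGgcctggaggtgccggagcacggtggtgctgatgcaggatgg
Hook1: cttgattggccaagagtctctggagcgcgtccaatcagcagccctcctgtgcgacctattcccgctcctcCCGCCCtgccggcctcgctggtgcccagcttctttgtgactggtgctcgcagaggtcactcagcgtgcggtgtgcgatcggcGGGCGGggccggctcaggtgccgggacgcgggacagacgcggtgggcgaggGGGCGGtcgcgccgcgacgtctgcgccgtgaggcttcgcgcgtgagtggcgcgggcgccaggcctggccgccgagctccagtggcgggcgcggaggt

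The Stmn3 window shown holds neither motif and has a GC content of 49.7%. That of Kif5c holds 1 of each at 58.0%, and that of Hook1 holds 3 GC boxes at 72.7%. Each is the first window listed for its gene, and any other window of these genes is counted only among the 49 below. Over the 49 windows of the 39 genes, 36 (73.5%) hold a GC box and 5 (10.2%) the cyclic AMP element, against 35.7% and 1.79% of all 32851 promoter windows. By gene, 31 of the 39 hold a GC box in some window. All windows were used without a match on expression or GC content, so the shares are given as a description. The 9 bases TTCAGCACC, the left part of the site of the neuronal repressor REST, were in 0 of the 49 and in 0.371% of all windows.

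The rest of the microtubule transport machinery was read from a separate list of 93 tested genes that leaves out cell division kinesins. In limma 0 were called in any comparison with saline, and 2 to 5 of the 93 had an unadjusted p under 0.05 in each, where 3.26 to 8.19% of all genes did. On day 8, 40 were higher and 53 lower in CVAD (median −0.02), and 44 and 49 in vincristine (median −0.01). The 13 tubulins, of which Tubb3 is also among the neuron markers, had medians of −0.05 in both. On day 2, 66 were higher and 26 lower in CVAD, 77 and 16 in cyclophosphamide, and 71 and 22 in dexamethasone, with medians of 0.05, 0.09 and 0.05 near the shift of all genes.

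Of its 21 tubulin-modifying and severing enzymes, 10 were higher and 11 lower than saline in CVAD on day 8. In limma 3 of the 21 had an unadjusted p under 0.05, against 5.98% of all genes. With 21 genes that count is not read as a result. Ttll4, which starts glutamate side chains on tubulin, was at 26.2, 25.1 and 24.7 TPM in CVAD, against 21, 14.8 and 14.5 TPM in saline on day 8. All CVAD libraries were higher, by 0.58 ± 0.13, with an adjusted p of 0.185. Atat1, the tubulin acetyltransferase, was at 64.7, 63.1 and 60.9 TPM in CVAD, against 57.4, 39.4 and 47.1 TPM in saline (0.40 ± 0.13, adjusted p = 0.537). It averaged 60.9 TPM in doxorubicin and 62.5 TPM in dexamethasone against the same saline libraries, both at an adjusted p of 1.0. In vincristine the smallest p values were those of Vash2, a tubulin detyrosinase, at 3.59 ± 0.738 TPM against 5.18 ± 0.368 TPM in saline, and of Hook2, at 8.22 TPM against 11.1 TPM (both adjusted p = 1.0).

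In cyclophosphamide on day 8, Agbl4, which trims glutamate chains, averaged 7.39 TPM against 12 TPM in saline (adjusted p = 0.608), and Kif26b 45.9 TPM against 34.6 TPM. Mtus1 averaged 120.4 TPM in doxorubicin and 139 TPM in saline, and Vash2 3.80 TPM in dexamethasone and 5.18 TPM in saline. On day 2 in CVAD, the dynein light chain Dynlt1b averaged 44.6 TPM against 32.9 TPM in saline (adjusted p = 0.376), and Agbl5, another deglutamylase, 15.4 TPM against 9.99 TPM (adjusted p = 0.441). Agbl5 averaged 14.4 TPM in cyclophosphamide on day 2, and Tuba1c 909.7 TPM against 773 TPM in saline. In dexamethasone on day 2, Tpgs1 averaged 73.7 TPM against 59.4 TPM in saline, and Dynlrb2 was listed at 2.16, 0 and 4.0 TPM against 0 in all 3 saline libraries.

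The 13 kinesins of cell division showed larger differences, with 0 called in limma. They were scarce, from a mean of 0.788 TPM for Kif14 to 14.2 TPM for Kif23, and Kif2c was at 0 in 8 libraries. Their differences are thus not set against the transport genes at a like level. On day 8, 8 had an unadjusted p under 0.05 in CVAD (5.98% of all genes), 6 in cyclophosphamide (5.76%), 1 in vincristine (3.44%), 2 in doxorubicin (3.35%) and 0 in dexamethasone (3.26%). On day 8 all 13 were lower than saline in cyclophosphamide (median −0.65) and in doxorubicin (−0.39), 12 in CVAD (−0.69) and in vincristine (−0.30), and 11 in dexamethasone (−0.19). These 5 comparisons share their saline libraries. In saline, 12 of the 13 were higher on day 8 than on day 2, with a median of 0.72. On day 2, 9 were higher than saline in CVAD (median 0.32), 10 in cyclophosphamide (0.24) and 10 in dexamethasone (0.14). The summed level of 4 cell division markers moved with these groups on day 8, at 12.1 to 25.7 TPM in CVAD, 13.9 to 26.9 TPM in cyclophosphamide, 18.9 to 35.9 TPM in vincristine, 22.9 to 37.7 TPM in doxorubicin and 33.3 to 43.7 TPM in dexamethasone, against 28.7 to 60.5 TPM in saline. That of 4 neutrophil precursor markers was 43.5 to 58.3 TPM in CVAD, 75.0 to 115 TPM in cyclophosphamide, 68.7 to 152 TPM in vincristine, 77.6 to 153 TPM in doxorubicin and 136 to 168 TPM in dexamethasone, against 144 to 232 TPM in saline. On day 2 the cell division markers were at 19.2 to 34.0 TPM in CVAD, 18.9 to 30.5 TPM in cyclophosphamide and 9.72 to 31.7 TPM in dexamethasone, against 12.4 to 35.0 TPM in saline. The neutrophil precursor markers were then at 102 to 183 TPM in CVAD, 78.4 to 108 TPM in cyclophosphamide and 52.6 to 134 TPM in dexamethasone, against 62.1 to 103 TPM in saline. Their part in the values of the kinesins was not tested.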

How the data were processed

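The authors deposited 1 table of TPM per gene for 30 libraries of total RNA, depleted of ribosomal RNA and prepared with strand kept, per the labels' protocols. Per the submitters' processing notes, StringTie 2.2.1, STAR 2.7.10b and FastQC 0.12.1 were used, and GRCm39 and mm10 are both named as builds with no role. Reads that paralogs share may have been split between them. Groups follow the labelled treatment and day.

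The 25434 genes that reached 1 TPM in 3 or more libraries entered the tests as log2(TPM + 1), which understates changes of low genes, in limma 3.58.1 (R 4.3.3) with 1 mean per group over all 30 libraries and a trend on mean expression. Family shares were compared by exact permutation and adjusted over 184 tests. Relations to marker sums, 102 in all, used log2 TPM and 100000 permutations. The text gives with values the 4 genes of smallest p against saline, 2 in other comparisons, and the most abundant of each role. Bicd2 and Map7 in CVAD on day 8, the list of non-overlapping genes in dexamethasone on day 2, and the genes with the highest and lowest r were picked with their values in view. The members and lists were chosen with earlier results of these data known. The fit was tested on simulated data. Figures used matplotlib 3.10.9.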

Additional observations from a re-analysis of the deposited data

How the results depend on the processing

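No transport gene was called in the comparisons run with a term for libraries S1 to S8, the neuron marker covariate, days modelled separately (17 of the 21 comparisons, without those across days), weights for library quality, rescaling over protein-coding genes, scaling by median ratio, no filter on low values or a pseudocount of 0.1 (164 values, all 21 comparisons in the other settings), nor with any 1 library left out (144 values, smallest adjusted p 0.251). The number of genes whose interval stayed within 1.5-fold of saline was 42 to 50 over these settings, and 46 to 50 with 1 library left out. Median differences from saline with 1 library left out ran from −0.103 to 0.170.

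Median-ratio scaling moved the median of the list in CVAD on day 2 to −0.0811 and in dexamethasone on day 2 to −0.0350, and rescaling over protein-coding genes moved the dexamethasone median to −0.0229. With the term for libraries S1 to S8, Kif3b turned to −0.0750 in CVAD and −0.00398 in dexamethasone on day 2. With it Kif16b turned to −6.06e-05 in cyclophosphamide on day 2, and the day 8 minus day 2 response of Kif21b in CVAD to 0.0948. That term is set only by dexamethasone on day 2, S7 and S8 against S9, so these values rest on library S9. The other 452 of 456 values of single genes kept their direction and side of the threshold, as did all 384 with 1 library left out. The cause was not tested. No paired analysis was possible because the labels give no replicate numbers shared between groups. Depth is unknown, so counting error could not be given.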
